A study of Mus musculus with 2 samples.

Results

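Granule and receptor genes of mast cells and basophils, 8 in all, were followed in the single-cell transcriptomes of mouse bone marrow LSK cells (Lin- Sca-1+ c-Kit+), a sorted fraction rich in blood stem cells and early progenitors. The 8 genes were Cma1, Mcpt8, Gzmb, Prss34, Cpa3, Hdc, Ms4a2 and Fcer1a, chosen by symbol from the 27998 genes of the matrices, and each symbol was found 1 time in the feature list. They were put together with earlier results of these libraries in view, so their levels in the libraries are a description and carry no test. There were 2 libraries, 1 per genotype, both from 3-month-old mice. The WT library was labelled Trmt6fl/fl, and the cKO library was labelled Trmt6fl/fl, MX1-cre, so both carried floxed alleles of Trmt6, which encodes the RNA-binding subunit of the enzyme that places m1A on tRNA. Mx1-Cre is an interferon-inducible recombinase that is also active outside the blood, and the methods of the study describe this transgene and pIpC injections in both genotypes, whereas the label of the WT library names no Cre. How many animals went into each library was not given in the sources used here. Genotype and library cannot be told apart.

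After filtering, 8148 WT cells and 8476 cKO cells were kept, with medians of 4251 and 10140.5 unique molecular identifiers (UMIs) per cell. Levels are CPM, the UMIs of a gene scaled to the UMI total of its library and multiplied by 1e6. Intervals are at 95% and stand for counting error alone. The targeted gene Trmt6 stood at 63.7 CPM in WT against 50.1 CPM in cKO, for a log2 ratio of -0.35 (-0.42 to -0.28). The libraries also differed in genes of the sort and of neighbouring lineages. Ly6a, which encodes Sca-1, had UMIs in 14.6% of WT cells and 65.4% of cKO cells, and Kit in 26.8% and 19.1%. The summed level of 8 neutrophil markers was 4823 CPM in WT and 8.09 CPM in cKO, where Cd177 was at 0. The sum of 8 granulocyte-monocyte progenitor (GMP) markers was 7389 CPM in WT and 1302 CPM in cKO, with none at 0. The sum of 17 mast cell and basophil markers outside the 8 genes was 2779 CPM in WT and 2875 CPM in cKO, with Tph1 at 0 in both libraries. Much of this sum came from genes found in most cells of both libraries, such as Srgn (1142 and 788 CPM) and Cd63 (311 and 406 CPM). Ifitm1 was also in the sum, at 846 CPM in WT and 1403 CPM in the cKO cells with fewer than 10 Cma1 UMIs. Rab44 (33.9 and 2.46 CPM) and Cd200r3 (0.211 and 0.715 CPM) moved in opposite directions, so the sum is no measure of mast cell and basophil content. The part of these differences in the results below was not tested. The libraries shared 21 barcodes among the kept cells.

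Mast cells and basophils are granulocytes that store proteases and histamine in cytoplasmic granules and carry the high-affinity IgE receptor, through which bound antigen triggers release of the granules. Their progenitors arise from Kit-expressing marrow cells, and transcripts of the granule proteases are made well before the granules are full. Chymases and granzymes are serine proteases encoded side by side, mast cell protease 8 and Prss34 are known from basophils, and chymase 1 (Cma1) together with the tryptase Tpsb2 marks mast cells of connective tissue type.

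Of the 8 genes, 3 lie in 1 protease cluster on chromosome 14. In GRCm38 with GENCODE M21, Cma1 spans chr14:55941451-55944675, Mcpt8 chr14:56082166-56085273 and Gzmb chr14:56258838-56262260, all on the minus strand. The 320810 bases from Cma1 to Gzmb hold 15 protein-coding genes, 12 of them on the minus strand. Of these 15 genes, 4 had any UMI in WT and 8 in cKO, among 42701593 and 88097227 kept UMIs. Of the genes found in cKO alone, Mcpt2 had 1 UMI, Cma2 had 2, Mcpt4 had 43 and Cma1 had 885. The same share over all genes was not counted, so nothing is read from these numbers. The others are single genes: Prss34 at chr17:25298394-25300165 on the plus strand, and on the minus strand Cpa3 at chr3:20215620-20242181, Hdc at chr2:126593667-126619299, Ms4a2 at chr19:11615523-11623719 and Fcer1a at chr1:173221284-173227214. The annotation places Mir6949 inside Mcpt8 and Mir7007 inside Cpa3. Because the assay reads 3' ends, the last 500 bases of the transcripts were compared with all other annotated transcripts. For Cma1, 112 of 472 stretches of 31 bases, or 23.7%, also occurred in Gm48934, an unprocessed pseudogene that was not among the genes counted by the authors, so its reads cannot be told apart over those stretches. For Ms4a2 the number was 5 of 1688, and for the other 6 genes it was 0.

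The promoters, from 250 bases before to 50 bases after the transcription start, were read from RefSeq on GRCm38.p6, where all 8 genes were matched. They were searched on both strands for GATAA, the core bound by GATA factors, because Gata1 and Gata2 are regulators of mast cell and basophil development. The core was present in 5 of the 8 promoters (Cma1, Prss34, Cpa3, Ms4a2 and Fcer1a) and absent from those of Mcpt8, Gzmb and Hdc, while 25.4% of 32851 promoters of the same length held it. It began 194 bases before the start of Cma1, 30 bases before Prss34, 45 bases before Cpa3 and 92 bases before Fcer1a, and 224, 37 and 10 bases before Ms4a2. The E-box CANNTG was found in 7 of the 8, beside 72.3% of all promoters, and TATAAA in Cpa3 and Fcer1a, beside 13.6%. No GATAA match overlapped a match of either motif. The promoters of Cma1 and Prss34 are shown because no cKO cell had 10 or more UMIs of both. That of Ms4a2, which held the core 3 times, and that of Mcpt8, which held none, are shown with them. Capitals mark GATAA or its complement TTATC.
Cma1, chr14:55944626-55944925, minus strand: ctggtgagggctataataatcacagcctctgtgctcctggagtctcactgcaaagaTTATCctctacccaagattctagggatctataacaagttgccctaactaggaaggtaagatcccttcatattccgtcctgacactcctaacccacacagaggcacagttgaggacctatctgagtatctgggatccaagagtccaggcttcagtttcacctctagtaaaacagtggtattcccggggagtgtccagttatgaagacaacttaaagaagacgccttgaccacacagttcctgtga
Prss34, chr17:25298144-25298443, plus strand: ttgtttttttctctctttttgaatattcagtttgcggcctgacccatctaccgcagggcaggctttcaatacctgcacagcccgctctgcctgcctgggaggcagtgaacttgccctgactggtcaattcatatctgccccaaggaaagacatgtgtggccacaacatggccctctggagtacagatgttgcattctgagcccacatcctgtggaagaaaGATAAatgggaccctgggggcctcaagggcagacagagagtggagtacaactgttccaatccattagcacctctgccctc
Ms4a2, chr19:11623670-11623969, minus strand: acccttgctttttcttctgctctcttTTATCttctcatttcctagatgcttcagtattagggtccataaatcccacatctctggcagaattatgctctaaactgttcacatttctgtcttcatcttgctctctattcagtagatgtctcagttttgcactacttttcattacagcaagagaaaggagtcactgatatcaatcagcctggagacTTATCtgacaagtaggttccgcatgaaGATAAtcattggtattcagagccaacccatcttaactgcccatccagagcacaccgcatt
Mcpt8, chr14:56085148-56085447, minus strand: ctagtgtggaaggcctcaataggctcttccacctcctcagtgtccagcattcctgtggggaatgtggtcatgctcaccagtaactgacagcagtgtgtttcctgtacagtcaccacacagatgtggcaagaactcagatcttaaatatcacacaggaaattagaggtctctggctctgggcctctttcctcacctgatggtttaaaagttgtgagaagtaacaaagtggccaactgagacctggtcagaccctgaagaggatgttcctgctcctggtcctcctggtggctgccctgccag

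Over all kept cells, Cma1 was found in the cKO library alone, Mcpt8, Cpa3, Hdc and Ms4a2 were lower in cKO, Gzmb was higher, and for Prss34 and Fcer1a the intervals of the ratio included 0. All 8 genes reached 1 CPM in a library, and 2 of them exceeded a log2 ratio of 1 and 4 lay below -1. Among the 11627 genes at 1 CPM or more, 4.51% exceeded 1 and 7.4% lay below -1. At 5 CPM or more, which 6 of the 8 genes reached, Cma1 exceeded 1 and Mcpt8, Cpa3 and Hdc lay below -1, beside 2.87% and 5.18% of 9137 genes. At 20 CPM or more, reached by Mcpt8, Prss34, Cpa3 and Hdc, none exceeded 1 and 3 lay below -1, beside 2.42% and 4.29% of 5408 genes. Since the genes were chosen with this contrast known, nothing is read from these shares.

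**Figure D1:**
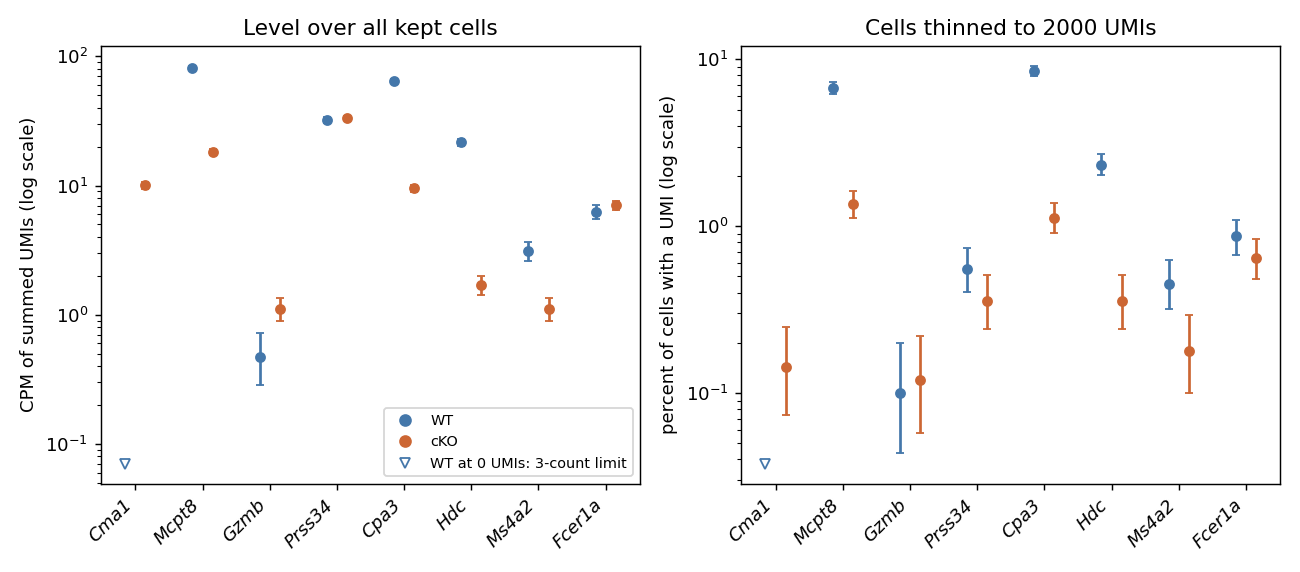
Left, level of each gene in CPM of summed UMIs (log axis) in the WT library (blue) and the cKO library (orange), with exact Poisson intervals. Right, percent of cells with a UMI after each cell was thinned to 2000 UMIs (log axis), with Clopper-Pearson intervals. Open triangles mark Cma1 in WT, which had 0 UMIs and is drawn at the limit of 3 counts. Mcpt8, Cpa3 and Hdc were lower in cKO on both measures.

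Among the proteases of the chromosome 14 cluster, Cma1, which encodes a chymase of mast cell granules, had 0 UMIs in the WT library and 885 UMIs in the cKO library, or 10.0 CPM (9.39 to 10.7). Against the WT limit of 3 counts, 0.0703 CPM, the level in cKO was 143-fold higher, a log2 ratio of 7.16, if UMIs are taken as independent draws. The lower bound of the log2 ratio by the conditional binomial interval was smaller, at 6.86. In cKO, 34 cells had a Cma1 UMI, of which 18 had 1 UMI and 16 had 10 or more, with none between, and the 3 highest cells had 139, 137 and 124 UMIs. The 16 cells held 867 of the 885 UMIs, so the fold does not cover the draw of so few cells. For 0 of 8148 WT cells, the upper Clopper-Pearson bound was 0.0453% of cells, while the cells with 10 or more were 0.189% of the cKO cells. The 18 cells with 1 UMI were spread over 11 clusters, and 1 of them held a UMI of another of the 8 genes.

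Mcpt8, a serine protease of basophils, had 3492 UMIs in WT and 1608 in cKO. Its level was 81.8 CPM (79.1 to 84.5) in WT against 18.3 CPM (17.4 to 19.2) in cKO, for a log2 ratio of -2.16 (-2.25 to -2.08). In each library a small number of cells held a large part: the top 10 cells held 37.3% of the WT UMIs and 47.2% of the cKO UMIs. With every cell given equal weight the ratio of Mcpt8 was closer to 0, at -0.996 with cells thinned to 2000 UMIs and -0.86 for the mean CPM of single cells. Gzmb, the granzyme B of cytotoxic lymphocytes that mast cells can also make, had 20 UMIs in 16 WT cells and 97 UMIs in 25 cKO cells. The levels were 0.468 CPM (0.286 to 0.723) against 1.10 CPM (0.893 to 1.34), with log2 ratio 1.205 (0.53 to 2.01). Without the cells that held 4 or more of the 8 genes, a setting added once the data had been seen, the log2 ratio of Gzmb was 0.0049, whereas with cells thinned to 2000 UMIs it was 2.12.

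Prss34, a serine protease of basophils and mast cells, differed little in its sum. It had 1381 UMIs in WT and 2946 in cKO, or 32.3 CPM (30.7 to 34.1) against 33.4 CPM (32.2 to 34.7), with log2 ratio 0.05 (-0.04 to 0.14). The sum rested on a handful of cells in both libraries. In WT, 77 of the 81 cells with a UMI had 1 UMI, and the 3 highest had 741, 534 and 27. In cKO, 61 of 74 had 1 UMI, and the 3 highest had 944, 533 and 429. The top 10 cells held 94.9% of the WT UMIs and 97.5% of the cKO UMIs, and without them the log2 ratio was -0.99, on 1.67 CPM in WT and 0.840 CPM in cKO. With no cell filter it was -0.51, where 1 removed WT barcode held 666 UMIs, and with cells thinned to 2000 UMIs it was 1.67. The interval treats UMIs as independent draws and does not cover the draw of so few cells.

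Cpa3, which encodes the carboxypeptidase A of mast cell granules, had 2740 UMIs in WT and 837 in cKO. The level was 64.2 CPM (61.8 to 66.6) in WT against 9.5 CPM (8.87 to 10.2) in cKO, for a log2 ratio of -2.76 (-2.87 to -2.64). Unlike Prss34, Cpa3 was spread over many WT cells: the top 10 cells held 7.77% of its WT UMIs and 30.0% of its cKO UMIs. Hdc, which encodes the enzyme that makes histamine from histidine, had 925 UMIs in WT and 149 in cKO. Its level of 21.7 CPM (20.3 to 23.1) in WT and 1.69 CPM (1.43 to 1.99) in cKO gave a log2 ratio of -3.67 (-3.94 to -3.43), the lowest of the 8 genes. Thinned to 2000 UMIs per cell, the ratios of Cpa3 and Hdc were -2.08 and -2.62, and for the mean CPM of single cells -1.63 and -2.41. No cKO cell had more than 6 Hdc UMIs, and the highest WT cell had 16.

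Of the receptor chains, Ms4a2 was lower in cKO, and the interval of the Fcer1a ratio included 0. Ms4a2, the beta chain of the high-affinity IgE receptor, had 132 UMIs in WT and 97 in cKO, or 3.09 CPM (2.59 to 3.67) against 1.10 CPM (0.893 to 1.34), with log2 ratio -1.49 (-1.88 to -1.10), which was -0.93 with cells thinned to 2000 UMIs and -0.27 for the mean CPM of single cells. Fcer1a, the IgE-binding alpha chain, had 266 UMIs in WT and 618 in cKO, or 6.23 CPM (5.50 to 7.02) and 7.01 CPM (6.47 to 7.59). The log2 ratio of Fcer1a was 0.17 (-0.04 to 0.38), and it was -0.06 without the top 10 cells of each library and 0.75 with cells thinned to 2000 UMIs. Fcer1g, the gamma chain that both IgE and IgG receptors use, is outside the 8 and stood at 244 CPM in WT against 88.2 CPM in cKO, for a log2 ratio of -1.47 (-1.51 to -1.42).

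The share of cells with a UMI was compared in cells thinned to 2000 UMIs, of which there were 7962 in WT and 8376 in cKO, with 186 and 100 shallower cells left out. Mcpt8 was found in 6.74% (6.20 to 7.32) of the WT and 1.35% (1.11 to 1.62) of the cKO cells. Cpa3 was found in 8.50% (7.90 to 9.14) and 1.12% (0.908 to 1.37), and Hdc in 2.34% (2.02 to 2.69) and 0.358% (0.242 to 0.511). For these 3 genes the intervals lay far apart, and the share was lower in cKO, as the level was. Ms4a2 was found in 0.452% of WT and 0.179% of cKO cells, with intervals of 0.317 to 0.625 and 0.100 to 0.295. The intervals overlapped for the other genes with WT UMIs: Fcer1a with 0.867% and 0.645%, Prss34 with 0.553% and 0.358%, and Gzmb with 0.100% and 0.119%. Cma1 was found in 0 of 7962 WT cells, for which the limit of 3 counts is 0.0377% and the upper Clopper-Pearson bound 0.0463% of cells with a UMI at this depth, and in 12 cKO cells, or 0.143% (0.0740 to 0.250). Without thinning, the shares were 14.9% and 4.78% for Mcpt8, 14.8% and 3.02% for Cpa3, 6.17% and 1.34% for Hdc, 0.835% and 0.460% for Ms4a2, 1.61% and 1.58% for Fcer1a, 0.994% and 0.873% for Prss34, 0.196% and 0.295% for Gzmb, and 0 and 0.401% for Cma1.

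Free RNA in droplets gives UMIs in cells that do not express a gene, so the shares were set beside those of clusters that should lack it. Clusters were built with the 8 genes left out of the features and were named from marker lists. In thinned cells, Mcpt8 was found in 17.6% of WT GMP-like cells and 7.91% of cKO GMP-like cells, against 0.986% and 0.180% of HSC-like cells, whose median was 2725.5 UMIs in WT and 6700 in cKO before thinning, against 10087 and 14311 in GMP-like cells. Hdc was found in 9.86% of WT and 1.02% of cKO GMP-like cells, and in 0 of 507 and 0 of 557 HSC-like cells. The intervals of the GMP-like and HSC-like shares lay apart for Mcpt8 in both libraries and for Hdc in WT. For Hdc in cKO they overlapped, at 0.442 to 2.001 and 0 to 0.660. Cpa3 was found in 10.6% of WT GMP-like, 13.9% of WT megakaryocyte-like and 2.17% of WT HSC-like cells, against 4.08%, 1.90% and 0.180% in cKO. In the B cell-like cluster, Cpa3 had UMIs in 1 of 14 thinned WT cells and 0 of 70 thinned cKO cells. In the T or NK-like cluster it had UMIs in 6 of 15 thinned WT cells (40%) and 15 of 53 thinned cKO cells (28.3%), above the GMP-like shares. Prss34 was found in 0.443% of GMP-like, 0.304% of megakaryocyte-like and 0.394% of HSC-like cells of WT and in 0.128%, 0% and 0.539% of those of cKO. Whether these low shares come from free RNA was not tested. No Prss34 UMI was found in the thinned B cell-like cells (14 WT and 70 cKO) or T or NK-like cells (15 WT and 53 cKO). In WT, 1 GMP-like cell had 741 UMIs, with which the GMP-like cluster held 54.4% of the WT Prss34 UMIs.

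**Figure D2:**
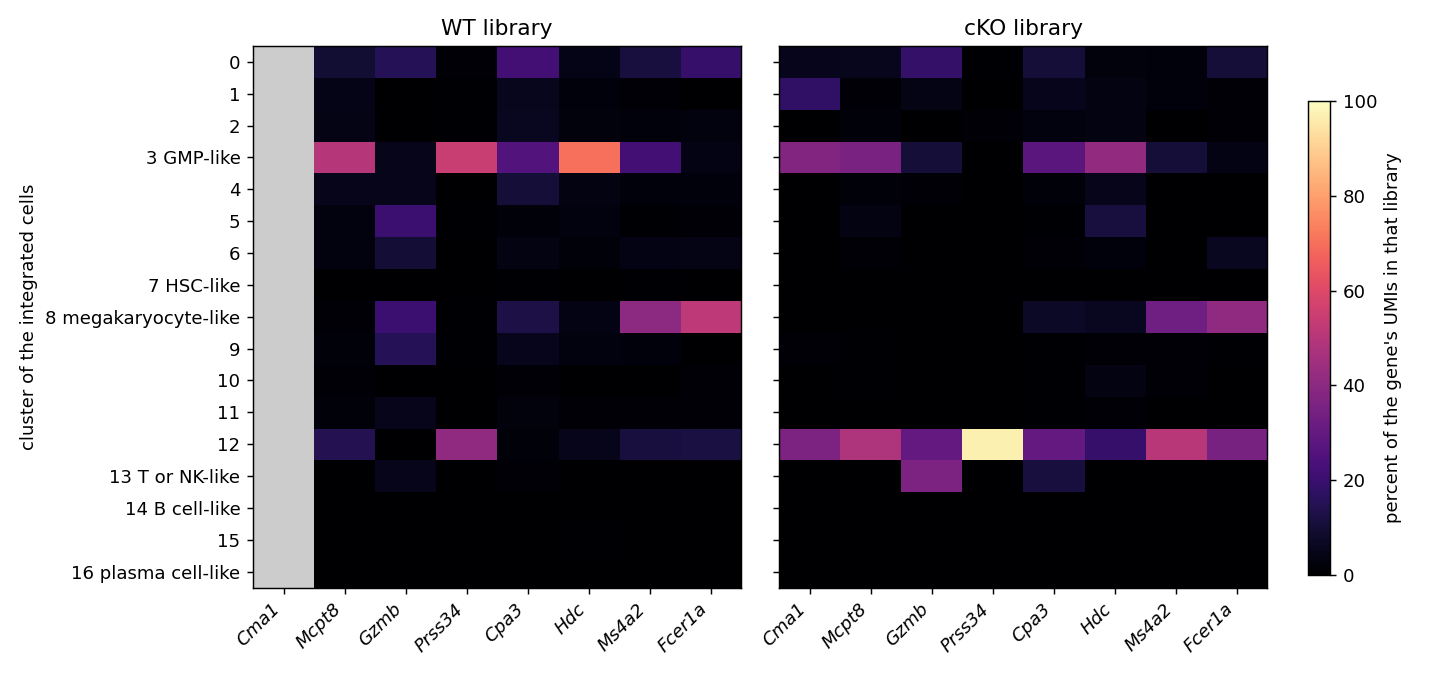
Percent of each gene's UMIs (colour) that fell in each of the 17 clusters of the integrated cells (rows), in the WT library (left) and the cKO library (right). Numbers without a name are clusters that took no cell type name, and grey marks Cma1 in WT, which had 0 UMIs. In cKO, cluster 12 held 97.2% of the Prss34 UMIs, and in WT the GMP-like cluster held 69.9% of the Hdc UMIs.

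Within the GMP-like cluster, led by Elane, Mpo and Ctsg, with 924 WT and 791 cKO cells, Mcpt8 stood at 185 CPM (176 to 194) in WT and 49.9 CPM (45.9 to 54.2) in cKO. Hdc stood at 68.6 CPM (63.4 to 74.1) and 5.42 CPM (4.15 to 6.95) there, and Cpa3 at 75.0 CPM (69.6 to 80.8) and 20.4 CPM (17.8 to 23.2). The genes that lead the cluster were lower in its cKO cells too: Elane had UMIs in 84.3% of its WT and 9.36% of its cKO cells, Mpo in 97.9% and 58.9%, and Ctsg in 96.2% and 96.7%, at 2908 and 1540 CPM. The cells that share this name thus differed between the libraries, and the part of this in the levels of Mcpt8, Hdc and Cpa3 was not tested. The GMP-like cluster held 69.9% of the Hdc UMIs and 49.9% of the Mcpt8 UMIs of WT. It also held 7 of the 16 cKO cells with 10 or more Cma1 UMIs, and none of the 16 had a UMI of Mpo. Over all cells, Mpo had UMIs in 10.9% of cKO and 73.8% of WT cells. At the cKO share, 16 cells with a median of 2370 UMIs are too few and too shallow to be set apart by this absence.

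The alpha and beta chains of the IgE receptor were found in the megakaryocyte-like cluster, led by Pf4, Car1 and Gp1bb, with 661 WT and 422 cKO cells. Car1 is in the list of erythroid markers, so the name does not separate megakaryocyte from erythroid progenitors. Fcer1a stood at 42.2 CPM (35.4 to 49.8) in WT and 48.4 CPM (42.6 to 54.7) in cKO, with UMIs in 6.09% and 6.16% of its thinned cells and in 0 thinned HSC-like cells of either library. This cluster held 51.9% of the Fcer1a UMIs of WT and 40.8% of those of cKO. Ms4a2 stood at 16.2 CPM (12.1 to 21.2) in WT and 6.14 CPM (4.20 to 8.67) in cKO. Cpa3 stood at 107 CPM (96.1 to 119) and 11.3 CPM (8.62 to 14.6) in the same cluster.

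Cluster 12, which took no cell type name, held 166 WT cells and 78 cKO cells, the latter with a median of 1946 UMIs. Its leading genes, the neutrophil genes S100a8, Ngp and Lcn2, came from its WT cells, where S100a8 had UMIs in 86 cells, while S100a8, Ngp and Lcn2 had UMIs in 1, 0 and 2 of its cKO cells. The cells of the libraries in this cluster were therefore not alike, and the values are given side by side. Prss34 had UMIs in 6 of its WT cells, at 758 CPM, and in 10 of its cKO cells, at 13901 CPM, and the cluster held 41.0% of the WT and 97.2% of the cKO UMIs of this gene. In cKO it also held 50.5% of the Ms4a2, 48.1% of the Mcpt8, 36.3% of the Cma1, 35.1% of the Fcer1a and 30.0% of the Cpa3 UMIs. In the T or NK-like cluster, led by Ccl5, Xcl1 and Cd7, Gzmb had 35 of its 97 cKO UMIs, in 7 of 89 cells, at 111 CPM (77.2 to 154). Cpa3 had UMIs in 8 of 21 WT cells and 17 of 89 cKO cells of the same cluster, at 307 CPM (249 to 375) in cKO. No Fcer1a or Ms4a2 UMI was found in the T or NK-like cells of either library.

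**Figure D3:**
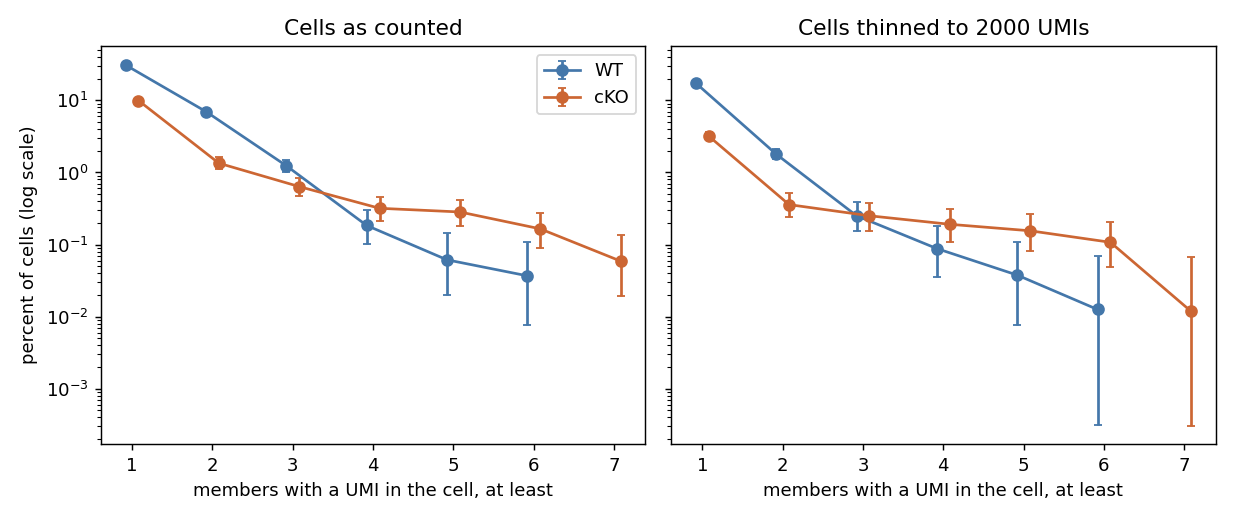
Percent of cells (log axis) with UMIs of at least the number of the 8 genes given on the horizontal axis, in WT (blue) and cKO (orange), for cells as counted (left) and thinned to 2000 UMIs (right), with Clopper-Pearson intervals. WT lay above cKO at 1 or more genes, and cKO lay above WT from 4 genes on. Cma1 had 0 UMIs in WT, so it adds to the count in cKO cells alone.

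Cells that held many of the 8 genes at a time were counted next. As counted, 30.9% of WT cells and 9.95% of cKO cells held a UMI of at least 1 gene, whereas 5 WT cells and 24 cKO cells held 5 or more, and 0 WT and 5 cKO cells held 7. After thinning, 3 or more genes were found in 20 WT cells, 0.251% (0.154 to 0.388), and 21 cKO cells, 0.251% (0.155 to 0.383). This equality holds at 2000 UMIs: the shares were 0.0861% in WT and 0.272% in cKO thinned to 1000 UMIs, and 1.24% and 0.637% as counted. At 2 or more genes the thinned shares were 1.80% (1.52 to 2.11) for WT against 0.358% (0.242 to 0.511) for cKO, and at 5 or more they were 0.0377% (0.00777 to 0.110) and 0.155% (0.0827 to 0.265). WT thus had the larger share at 2 or more genes and cKO at 5 or more. Cma1 had 0 UMIs in WT, so it could add to the count in cKO cells alone. It was held by 14 of the 27 cKO cells with 4 or more genes, and the shares were not counted without it. At 5 or more the intervals overlapped in cells thinned to 2000 UMIs, which leaves out 8 of the 27 cKO cells with 4 or more genes, and lay apart as counted, at 0.0199 to 0.143 in WT and 0.182 to 0.421 in cKO. The 27 cKO cells with 4 or more genes held 97.3% of the Prss34, 94.2% of the Cma1, 58.8% of the Ms4a2, 56.7% of the Gzmb, 53.5% of the Mcpt8, 42.9% of the Cpa3, 41.1% of the Fcer1a and 22.8% of the Hdc UMIs of their library. The 15 WT cells with 4 or more held 94.5% of the Prss34, 49.2% of the Ms4a2, 31% of the Mcpt8, 24.1% of the Fcer1a and 5.91% of the Cpa3 UMIs. They held 4.22% of the Hdc UMIs, although every one of these 15 held Hdc, and 0% of the Gzmb UMIs. Outside these cells the levels were 56.6 and 8.50 CPM for Mcpt8, 60.5 and 5.43 CPM for Cpa3, 20.8 and 1.31 CPM for Hdc and 1.57 and 0.455 CPM for Ms4a2, in WT and cKO.

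In pairs, the receptor chains and Cpa3 were found together. Of the cells with an Ms4a2 UMI, 18 of 68 in WT and 27 of 39 in cKO also held Fcer1a, while Fcer1a was found in 1.61% and 1.58% of all cells. Cpa3 was held by 38 of the 68 WT and 27 of the 39 cKO cells with Ms4a2. For the granulocytic genes, 208 of 503 WT cells and 47 of 114 cKO cells with Hdc held Mcpt8, which was found in 14.9% and 4.78% of all cells. Among the 25 cKO cells with Gzmb, 11 held Cma1 and 12 held Cpa3, and none of the 16 WT cells with Gzmb held Mcpt8. Depth differs between the cells of these counts, since cells with more UMIs hold more genes. Of the 36 WT thinned cells with Ms4a2, 10 held Fcer1a and 18 held Cpa3, and of the 15 cKO thinned cells, 11 and 12 did. Of the thinned cells with Hdc, 28 of 186 in WT and 10 of 30 in cKO held Mcpt8. In all thinned cells Mcpt8 was found in 6.74% and 1.35%.

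**Figure D4:**
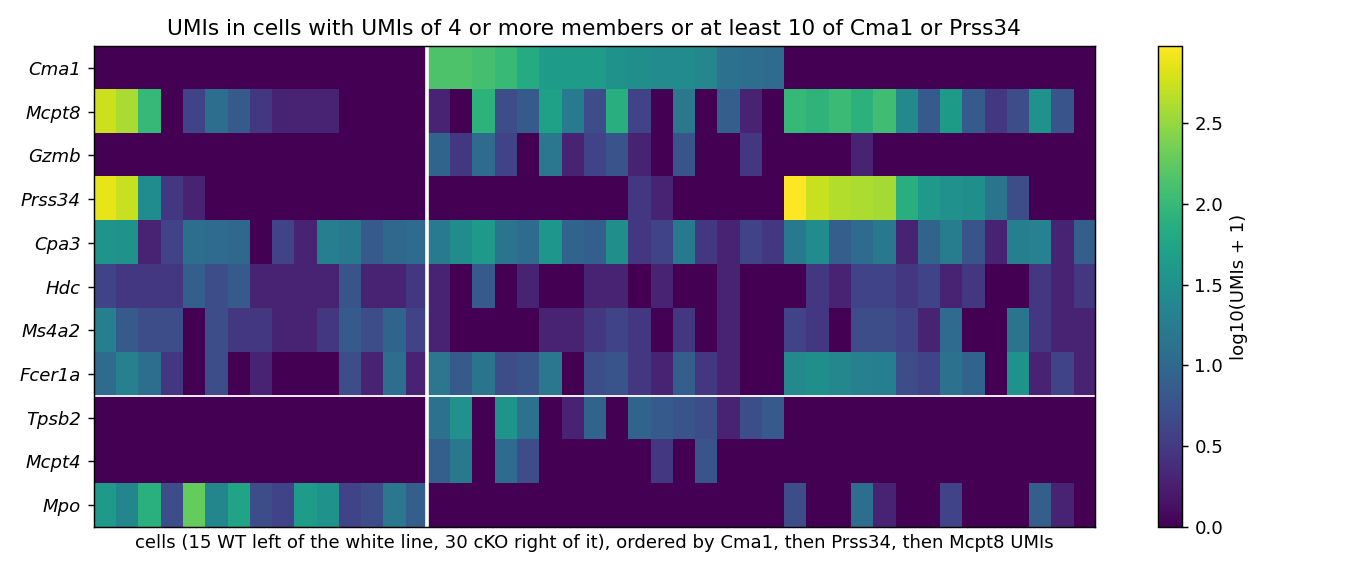
UMIs as log10(UMIs + 1) (colour) of the 8 genes and of Tpsb2, Mcpt4 and Mpo (rows) in each cell with UMIs of 4 or more of the 8 genes or with 10 or more Cma1 or Prss34 UMIs (columns), 15 WT cells left and 30 cKO cells right of the white line. In cKO, the 16 cells with 10 or more Cma1 UMIs and the 10 with 10 or more Prss34 UMIs were separate cells. None of the former had an Mpo UMI, and Mpo had UMIs in 10.9% of all cKO cells.

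In the cKO library, no cell had 10 or more UMIs of both Cma1 and Prss34. The limit of 10 UMIs was chosen after these values were seen. Of the 16 cKO cells with 10 or more Cma1 UMIs, 2 held Prss34, with 1 and 2 UMIs, and of the 10 cKO cells with 10 or more Prss34 UMIs, none held Cma1. Over all cKO cells, Prss34 had UMIs in 0.873% and Cma1 in 0.401%. Every one of the 16 Cma1 cells held Cpa3, with a median of 9 UMIs and up to 39. Fcer1a was held by 13 of the 16, Mcpt8 by 12, Gzmb by 11, Ms4a2 by 8 and Hdc by 7. Every one of the 10 Prss34 cells held Mcpt8, with a median of 60.5 UMIs, and Cpa3, with a median of 9, while 9 held Fcer1a, 8 Hdc and 7 Ms4a2, and 1 held Gzmb. Gzmb was thus held by 11 of the 16 Cma1 cells and 1 of the 10 Prss34 cells, beside 0.295% of all cKO cells.

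Some genes outside the 8 followed this split and others were held by both kinds of cell. Leaving out the 8 genes, those with the highest level in the Cma1 cells over the other cKO cells were the tryptase Tpsb2, the chemokine Ccl2 and the chymase Mcpt4. Tpsb2 stood at 2786 CPM in the Cma1 cells, where 13 of 16 held it, and at 0.0681 CPM in the other cKO cells. Mcpt4 had all of its 43 UMIs in 6 of the Cma1 cells, and neither gene had a UMI in WT. None of the 10 Prss34 cells held Tpsb2 or Mcpt4. Those cells were led by the chemokine Ccl3 at 2043 CPM, the receptor Cd200r3 at 792 CPM and the chemokine Ccl4 at 1522 CPM, against 2.33, 0.284 and 10.6 CPM in the other cKO cells. Cd200r3 was also held by 11 of the 16 Cma1 cells, at 274 CPM, and Cyp11a1 and Alox5 were each held by 10 of the 16 Cma1 and 7 of the 10 Prss34 cells. The 3 WT cells with 10 or more Prss34 UMIs held 97, 395 and 564 Mcpt8 UMIs and were led by Csrp3, Alox5 and Rnase12, each found in 3 of 3. Mpo, widespread in WT, was held by all 3 and by 4 of the 10 cKO Prss34 cells.

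The Cma1 cells were shallow. Their median was 2370 UMIs, from 509 to 10304, which was 23.4% of the median of the cKO library, and 8 of the 16 fell under 2000 UMIs and so were left out of the thinned shares. Up to 6.18% of the UMIs of such a cell were Cma1. The cKO Prss34 cells had a median of 5341.5 UMIs, and up to 13.5% of the UMIs of a cell were Prss34, whereas the 3 WT Prss34 cells had 8517, 9850 and 10286 UMIs. None of these cells had a barcode that was also found in the other library. The part of depth in the split was not tested.

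Across cells, the genes outside the 8 most like each of them were ranked by Pearson's r of log-normalized values, which is a description over cells of 1 library. In WT, over 8148 cells, Mcpt8 was nearest to Ctsg (r = 0.35), Mpo (0.30) and Ap3s1 (0.22), and Hdc to Ms4a3 (0.36), Elane (0.33) and Fcgr3 (0.33), which are genes of early granulocytic cells. For Cpa3 and Fcer1a the first outside gene was Apoe, with r of 0.24 and 0.20, while Fcer1a had an r of 0.28 with Ms4a2. Ms4a2 was nearest to Csrp3 (0.38) and Prss34 to Rnase12 (0.24), and for Gzmb the highest r was 0.13, with Scin. In cKO, over 8476 cells, Cd200r3, which had UMIs in 31 cells, was the nearest outside gene of Mcpt8 (0.56), Prss34 (0.64), Cpa3 (0.61), Hdc (0.59), Ms4a2 (0.52) and Fcer1a (0.70). Ccl2 was the first outside gene for Cma1 (0.86) and Gzmb (0.53), and the r of Gzmb with Cma1 itself was 0.62. The cells share a library and differ in depth.

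Lists of related genes were followed beside the 8, and of the 62 that reached 5 CPM in either library, 2 exceeded a log2 ratio of 1 and 18 lay below -1, against 2.87% and 5.18% of all genes at that level. Among 12 other genes of the chymase and granzyme cluster, Ctsg alone reached 5 CPM, with 917 CPM in WT against 274 CPM in cKO, for a log2 ratio of -1.74. Of 5 tryptases and other proteases, Ctsl, a lysosomal cysteine protease, was higher (1.31), Dpp4 was lower (-1.21) and 3 lay between. Of 11 genes of IgE receptor signalling, Fcer1g was lower and 10 lay between, with a median of -0.60 for the list. The median over all 9137 genes was -0.07.

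Of 9 cytokine receptors, integrins and related genes, 3 lay below -1: the integrin Itgam (-3.17), the stem cell factor receptor Kit (-1.56) and the cytokine Tslp (-1.51). Of 16 transcription factors, 5 lay below -1: Irf8 (-3.88), Zeb2 (-2.20), Cebpa (-1.86), Runx1 (-1.51) and Gata1 (-1.26). Gata2, which is needed for mast cells and basophils, stood at 57.6 CPM in WT against 57.8 CPM in cKO. Irf8 and Cebpa are regulators of monocytes and granulocytes, as well as of the progenitors they share with basophils. Of 15 genes of granule content and mediator synthesis, Ptgs1, the cyclooxygenase 1 of prostaglandin synthesis, was higher (1.73). Rab44 (-3.78), Serpinb1a (-1.25), Hnmt (-1.02), which inactivates histamine, and Rab27a (-1.01) were lower. Of 5 cytokines and chemokines, Ccl3 (-5.72), Ccl9 (-4.35) and Ccl4 (-4.06) were lower, with 182, 162 and 190 CPM in WT and 3.44, 7.97 and 11.4 CPM in cKO. Ccl3 was thus lower over all cKO cells and high in the cKO cells with 10 or more Prss34 UMIs.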

How the data were processed

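The values deposited for the 2 libraries of sorted LSK cells are UMI counts, by gene and barcode, made by the authors with Cell Ranger 6.0.0 on mm10 (per the labels). The labels name version 2 of the 10x 3' kit and the methods version 3. Limits of the study were applied: over 200 genes, under 4000 genes and 10% mitochondrial UMIs in WT, under 4500 and 5% in cKO, and under 5% hemoglobin UMIs. They passed 8763 of 8869 WT barcodes (47991455 UMIs) and 9151 of 9260 cKO barcodes (98323201 UMIs). A simulated-doublet score (50 neighbours, 20 components, 1500 genes) removed 0.8% per 1000 barcodes.

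CPM carry exact Poisson intervals, log2 ratios (0.5 prior counts) conditional binomial intervals and shares Clopper-Pearson intervals (scipy 1.17.1), and the limit for 0 is 3 counts. Each genotype had 1 library, so no p-value is given. The code was tested on simulated data. Clustering used SCTransform integration in Seurat 5.3.0 (sctransform 0.4.2) (3000 features, 30 dimensions, resolution 0.8, mitochondrial share and S minus G2/M regressed). A cluster was named where at least 2 of its 10 leading genes (50 CPM or more, by fold over other cells) were markers of a type and at least 3 markers supported it. The minimum of 2 was chosen after seeing the clusters.

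The 8 genes, the gene lists and the alternatives were chosen with earlier results of these data known. Named genes were the 8, the 3 genes with the highest r for each among those with UMIs in 20 or more cells, and list genes past a log2 ratio of 1 or -1 at 5 CPM or more. Some genes were named after their values were seen. These were the leading genes of clusters and of the cells with 10 or more Cma1 or Prss34 UMIs, and genes of the sort. Fcer1g, Gata2, Srgn, Cd63, Ifitm1, Mcpt2 and Cma2 were named in the same way.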

Additional observations from a re-analysis of the deposited data

Results flagged for a closer look

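The kept cells left out part of the UMIs, and for 3 genes that part exceeded the share of all UMIs left out, which was 11% in WT and 10.4% in cKO. Removed WT barcodes held 17.6% of the Mcpt8 UMIs (16.5 to 18.8), 32.8% of the Prss34 UMIs (30.8 to 34.9) and 19.8% of the Hdc UMIs (17.6 to 22.3). Removed cKO barcodes held 17.7% of the Hdc UMIs (12.4 to 24.0). Of the 674 Prss34 UMIs removed in WT, 666 lay in 1 barcode with 26193 UMIs and 4606 genes, over the gene limit and marked as a doublet, which also held 221 Mcpt8, 22 Fcer1a, 5 Cpa3 and 4 Ms4a2 UMIs. In cKO, 1 barcode with 858 UMIs and 28 Cma1 UMIs was removed for its mitochondrial share of 5.01%.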

How the results depend on the processing

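No paired analysis was possible because the labels give 1 library per genotype and no replicate numbers. Of 80 log2 ratios of the 8 genes under other settings, 49 moved by less than their counting interval, 26 moved by more and 5 changed sign, and of 40 differences in share the numbers were 23, 13 and 4. Changes of sign were limited to Prss34, Fcer1a and Gzmb. The log2 ratio of Prss34 became -0.51 with no cell filter, -0.99 without the 10 cells with the most UMIs and -0.97 without cells with 4 or more of the genes, a setting added after seeing the data. That of Fcer1a became -0.055 and -0.20 under the last 2. The difference in share of Gzmb became -0.028 points with doublets kept and -0.0051 with no cell filter, and at 2 or more UMIs per cell those of Prss34 and Fcer1a became 0.10 and 0.17 points. Genes above a log2 ratio of 1 fell from 2 to 1 without the top 10 cells and without the cells with 4 or more genes, and were 3, with Prss34, for the mean CPM of single cells and with cells thinned to 2000 UMIs. Genes below -1 fell from 4 to 2 with the mean CPM of single cells and with cells thinned to 2000 UMIs, both of which give every cell equal weight, since Mcpt8 and Ms4a2 then lay above -1. The WT share of cells with 3 or more genes became 0.0861% thinned to 1000 UMIs, 1.24% not thinned, 0.152% with doublets kept, 1.80% for 2 or more and 0.0879% for 4 or more genes, and that of cKO 0.272% thinned to 1000 UMIs and 0.637% not thinned, so that the library with the larger share turned with the thinning. Genes with over 50% of their cKO UMIs in 1 cluster rose from 2 to 4 with no integration. List genes above 1 were 4 at 1 CPM or more, and those below -1 were 11 at 20 CPM or more. The cause of these moves was not tested beyond what each setting removes. Depth limits the absence of Cma1 in WT to under 0.0703 CPM by the limit of 3 counts, or under 0.0864 CPM by the Poisson interval. Both hold for UMIs drawn independently, which does not cover the draw of a few cells with many UMIs.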
